A study of Sus scrofa with 4 samples.

Results

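The genes of DNA replication and deoxynucleotide supply were followed in infarcted minipig hearts after myoblast transplantation. The genes were RRM1, RRM2 and RRM2B, which code for the subunits of ribonucleotide reductase, the helicase genes MCM2, MCM4, MCM5 and MCM6, the sliding clamp gene PCNA, the G1 cyclin gene CCND1 and the CDK inhibitor gene CDKN1A. All probe sets annotated to each symbol were read. Of these 10 genes, 8 had a probe set of their own symbol, 13 probe sets in all, of the 6765 genes and 24123 probe sets of the series. MCM6 and CCND1 carried none and were skipped. The members were chosen by the low myoblast over control ratio of RRM2B on these same arrays, so the ratio of RRM2B is given as a description, and all members are read in the contrast that selected them.

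Myocardial infarction (MI) was made in 4-month-old female Chinese Bama minipigs by permanent ligation of the left circumflex coronary artery. In the myoblast transplantation group, male human skeletal myoblasts in DMEM were injected into the heart muscle, at the expected border zone of the infarct. These minipigs received cyclosporin A, an immunosuppressant. Tissue of the border zone and of the infarct zone was hybridised to Affymetrix Porcine Genome Arrays. The control arrays hold the same zones of minipigs with MI and are taken as the control treatment group, injected with DMEM without cells under the same cyclosporin A, since the study's text names that group as the comparison for its arrays. The labels call these samples untreated, and were they from the MI group given neither DMEM nor cyclosporin A, an effect of the drug or of injection could not be told apart from that of the cells. There was 1 array for each of the 4 conditions, the number of minipigs behind an array and the week of sampling are not given in the sources used here, and no spread between minipigs could be estimated or tested. The probes were designed for pig transcripts, and how much human RNA contributed to a signal was not tested.

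Ribonucleotide reductase converts ribonucleotides to deoxynucleotides, the building blocks of DNA. In dividing cells its large subunit RRM1 pairs with RRM2, which is made in S phase and degraded in mitosis. RRM2B, also called p53R2, is the alternative small subunit, which p53 induces after DNA damage and which supplies deoxynucleotides for repair and for mitochondrial DNA in cells that do not divide, as most cardiomyocytes of the adult heart.

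A value is a MAS 5.0 signal, a background-subtracted brightness scaled to a common mean on each array, and a ratio is the signal of myoblast tissue over that of control tissue in the same zone. A gene or probe set is said to have risen or fallen where it was at least 2-fold higher or lower in both zones. Signals were comparable between arrays, with array medians of 139.5 and 142 units in the myoblast border and infarct zones, against 139 and 137 units in the control border and infarct zones. With 1 array per condition, how well a ratio repeats could not be measured. The gap between the control zones, which can hold tissue differences as well as noise, is given in its place. Between the zones of control tissue, a gap of at least 2-fold was found for 53.2% of the probe sets dimmer than 32.0 units on average, 15.1% of those between 32.0 and 128 units, 1.14% of those between 128 and 512 units and 0.270% of those between 512 and 2048 units.

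The small subunit RRM2B was far lower after myoblast transplantation in both zones, while its partner RRM1, the p53 target CDKN1A and the clamp PCNA stayed within 1.31-fold of control in each zone. RRM2B had signals of 30.6 units in the border zone and 82.3 units in the infarct zone after myoblasts, against 615 and 678 units in the control border and infarct zones. Both myoblast signals lay below the median of their array and both control signals above it. The signal of RRM2B was 20.1 times lower in the border zone, 8.24 times lower in the infarct zone, and 12.9 times lower in the mean over zones, a log2 ratio of −3.69. In bulk tissue, fewer cells that express a gene and less RNA per cell cannot be told apart.

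The border zone signal of RRM2B after myoblasts, 30.6 units, was under the 25th percentile of its array, 34.7 units. At that brightness, 2-fold gaps between the control zones were common. With every signal raised to at least the median of its array, RRM2B was 4.41 times lower in the border zone and 4.78 times lower in the infarct zone. Both myoblast signals are then replaced by the median, so these folds only show how far the control signals lay above it. The size of the fold thus depends on how dim values are handled. The floors could not have reversed its direction. RRM2B was read by 1 probe set of the _a_at type, which marks probes that match alternative transcripts of the same gene. No second probe set was present to set beside it.

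RRM2B was the only one of the 13 member probe sets to fall in both zones, and none rose, beside 2.81% of all probe sets lower and 2.91% higher by the same rule. Its rank by ratio among all 24123 probe sets, 64 from the lowest in the border zone, 349 in the infarct zone and 22 by the mean, describes the value that chose it. Of the probe sets with a mean signal between 128 and 512 units, 0.962% fell and 1.08% rose. The mean of RRM2B lies in that range, but its myoblast signals were dimmer and its control signals brighter.

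**Figure D1:**
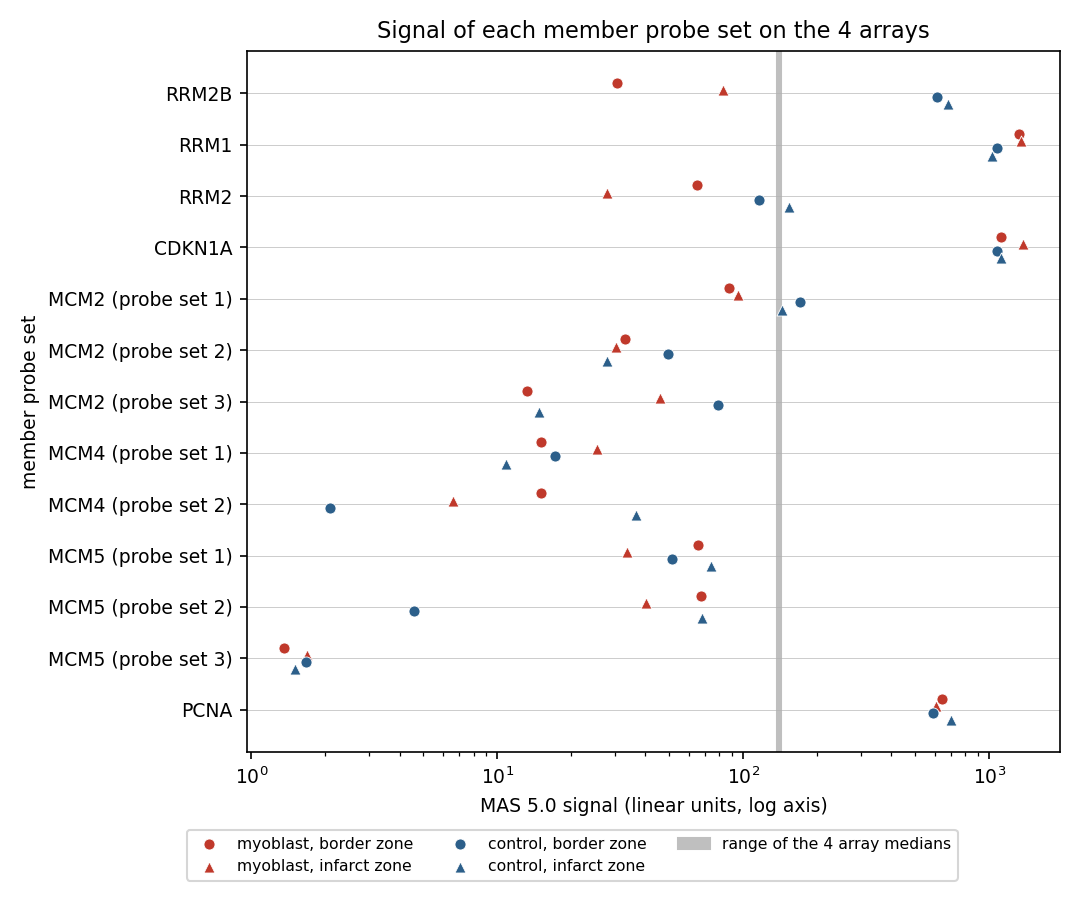
MAS 5.0 signal (log axis) of each of the 13 member probe sets on the 4 arrays, with circles for the border zone, triangles for the infarct zone, red for myoblast tissue and blue for control tissue, and a grey band for the range of the array medians. RRM2B stands at 30.6 and 82.3 units after myoblasts and at 615 and 678 units in control, while RRM1, CDKN1A and PCNA lie together on the bright side of the band on all arrays.

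RRM1, the large subunit that carries the catalytic site and pairs with either small subunit, had signals of 1319 and 1349 units in the myoblast border and infarct zones, against 1076 and 1028 units in the control border and infarct zones. Its ratios were 1.23 and 1.31, both above 1 and neither 2-fold. The log2 ratio of RRM2B minus that of RRM1 was −4.62 for border tissue and −3.43 for infarct tissue. The subunits of the same enzyme were therefore not lowered to a like degree on these arrays.

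RRM2, the small subunit of dividing cells, had signals of 64.8 and 27.9 units in the myoblast border and infarct zones, against 116 and 154 units in the control border and infarct zones. Only the control infarct signal exceeded the median of its array. RRM2 was 1.79 times lower in the border zone and 5.50 times lower in the infarct zone, so it passed 2-fold in the infarct zone alone, and in the mean over zones, with a log2 ratio of −1.65. With signals raised to the array median its mean log2 ratio was −0.05, so the low ratios of RRM2 rest on signals below that level.

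The zones ordered differently for the small subunits. After myoblasts, the infarct over border ratio was 2.69 for RRM2B and 0.431 for RRM2, whereas in control tissue it was 1.10 for RRM2B and 1.33 for RRM2. The log2 ratio of RRM2B minus that of RRM2 was −3.49 for border tissue and −0.58 for infarct tissue. These zone differences come from single arrays with dim myoblast signals and were not tested. In all, 4 member probe sets were at least 2-fold apart between zones after myoblasts and 3 in control tissue, beside 18.0% of all probe sets after myoblasts and 17.2% in controls.

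CDKN1A codes for p21, the CDK inhibitor that p53 induces to halt the cell cycle, and shares that regulator with RRM2B. Its signals were 1115 and 1369 units in the myoblast border and infarct zones, against 1079 and 1112 units in the control border and infarct zones. The ratios of 1.03 and 1.23 were above 1 in both zones, as were those of RRM1, and no other member was above 1 in both. By gene, 33.2% of all measured genes had ratios above 1 in both zones and 31.3% had ratios below 1 in both. The log2 ratio of RRM2B minus that of CDKN1A was −4.38 for border tissue and −3.34 for infarct tissue.

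PCNA, the clamp that holds DNA polymerase on its template and also a p53 target, had signals of 641 and 607 units in the myoblast border and infarct zones, against 593 and 699 units in the control border and infarct zones. The ratios were 1.08 and 0.869, on either side of 1, and the control zones by themselves were as far apart as the groups. PCNA, RRM1 and CDKN1A were the 3 member probe sets above the array median on all 4 arrays. The probe sets of that brightness, 512 to 2048 units, fell in 0.562% and rose in 0.741% of cases.

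MCM2, MCM4 and MCM5 code for subunits of the hexameric helicase that licenses origins and opens the fork, and they were dim. Of their 8 probe sets, 7 lay below the array median on all 4 arrays. The exception was the brightest probe set of MCM2, with signals of 87.8 and 95.4 units in the myoblast border and infarct zones, against 170.3 and 144 units in the control border and infarct zones. Its ratios were 0.516 and 0.660, neither 2-fold. By the higher of the zone ratios, RRM2B stood inside the 2-fold rule at 0.121, and just outside it stood RRM2 at 0.559 and this probe set at 0.660. Beside RRM2B and RRM2, this MCM2 probe set was the third with ratios below 1 in both zones.

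The other MCM probe sets did not order the groups the same way in both zones. The second MCM2 probe set had ratios of 0.673 and 1.09 in the border and infarct zones. The third had signals of 13.2 and 45.8 units in the myoblast border and infarct zones, against 78.6 and 14.8 units in the control border and infarct zones, and so ratios of 0.168 and 3.09 that point opposite ways. The probe sets of 1 gene thus disagreed on direction in the infarct zone.

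MCM4 gave ratios of 0.876 and 2.35 by its first probe set. By the second, its signals were 15.0 and 6.62 units in the myoblast border and infarct zones, against 2.09 and 36.6 units in the control border and infarct zones, with ratios of 7.15 and 0.181. Of the 13 member probe sets, 2 were thus at least 2-fold in opposite directions in the zones, beside 3.73% of all probe sets and 13.6% of those dimmer than 32.0 units on average. All 4 signals of each of these 2 probe sets were below the median of their array.

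MCM5 was higher than 2-fold in the mean over zones by 1 of its 3 probe sets, and that came from a single dim control value. Its signals by that probe set were 67.0 and 40.1 units in the myoblast border and infarct zones, against 4.59 and 67.9 units in the control border and infarct zones, with ratios of 14.6 and 0.591. The brightest MCM5 probe set had ratios of 1.27 and 0.455, and the third held signals of 1.36 to 1.68 units on the 4 arrays, near the bottom of the scale. By the mean over zones, 2 member probe sets were at least 2-fold lower, RRM2B and RRM2, and 1 was higher, beside 7.82% of all probe sets lower and 7.70% higher by that rule.

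**Figure D2:**
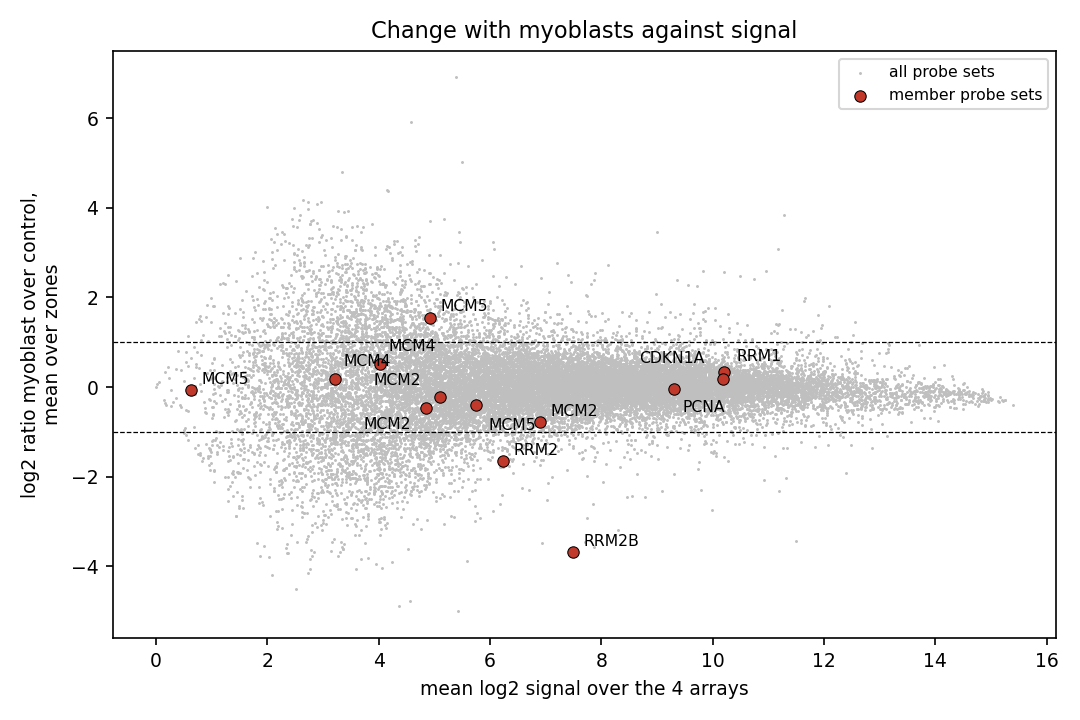
Log2 ratio of myoblast over control, averaged over the border and infarct zones, against the mean log2 signal of the 4 arrays, with all 24123 probe sets in grey, the 13 member probe sets in red and dashed lines at 2-fold. RRM2B, at −3.69, lies apart from the grey cloud at its mean signal, which shows again the low ratio that chose it. The MCM probe sets and RRM2 lie where the cloud is broad.

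Of 35 genes listed for this pathway 22 were measured, 1 fell (RRM2B), 1 rose (TYMS) and 20 did neither. Their median log2 ratio was 0.05, against 0.02 over all measured genes, with 10 genes above 1 in both zones and 6 below. Over all genes, 1.85% fell and 2.05% rose by the 2-fold rule in both zones. By direction alone, 33.2% were above 1 in both zones and 31.3% below. TYMS, thymidylate synthase, which makes dTMP, had signals of 32.8 and 41.9 units in the myoblast border and infarct zones, against 10.7 and 6.70 units in the control border and infarct zones, below the median on every array.

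By the mean over zones, 5 of the 22 supply genes were at least 2-fold lower and 1 was higher. By that rule 7.82% of all probe sets were lower and 7.70% higher, and a share by gene was not computed. RRM2B is counted although its ratio chose the members. Beside RRM2B and RRM2 the lower genes were DCTPP1, a dCTP pyrophosphatase, with ratios of 0.323 and 0.558, GUK1, guanylate kinase, with 0.253 and 0.736, and CDA, cytidine deaminase, with 1.24 and 0.161. In contrast to RRM2B, the signals of DCTPP1, GUK1 and CDA were under the array median on all arrays, where 2-fold gaps between the control zones were more common.

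None of the other supply genes above the array median reached 2-fold in either zone by its brightest probe set. SAMHD1, the triphosphohydrolase that degrades dNTPs, had signals of 2496 and 3323 units in the myoblast border and infarct zones, against 1904 and 1945 units in the control border and infarct zones. Its ratios of 1.31 and 1.71 lay short of 2-fold in both zones. The ratios of GLRX, the glutaredoxin that can reduce ribonucleotide reductase, were 1.55 and 1.49, and those of MTHFD2, a mitochondrial folate enzyme, were 1.61 and 1.24. Another GLRX probe set gave 1.08 in each zone.

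On the low side of the supply list, above the array median, stood NME2, a nucleoside diphosphate kinase, with ratios of 0.841 and 0.787. SHMT1, the cytosolic serine hydroxymethyltransferase that feeds thymidylate synthesis, had ratios of 0.693 and 1.09, and a dimmer probe set of the same gene gave 6.93 and 7.02.

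The list of p53 targets and regulators likewise held no second gene that fell. Of 34 listed genes 21 were measured, 1 fell (RRM2B), 2 rose (PMAIP1 and PLK3) and 18 did neither, with a median log2 ratio of −0.01, 8 genes above 1 in both zones and 7 below. PMAIP1, the pro-apoptotic BH3-only protein NOXA, had signals of 105 and 147 units in the myoblast border and infarct zones, against 51.9 and 37.4 units in the control border and infarct zones. PLK3, a stress-responsive polo-like kinase, had signals of 34.8 and 63.8 units in the myoblast border and infarct zones, against 8.69 and 30.1 units in the control border and infarct zones. Neither gene was above the array median in both zones in its brighter group.

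Among the brighter p53 targets other than RRM2B the ratios went both ways and none reached 2-fold. DDB2, a DNA damage recognition protein of nucleotide excision repair, had signals of 157 and 129 units in the myoblast border and infarct zones, against 257 and 225 units in the control border and infarct zones, with ratios of 0.610 and 0.573. Its dimmer probe sets gave 0.818 and 0.413, and 0.190 and 1.65, so the last had the opposite sign in the infarct zone. FDXR, the mitochondrial ferredoxin reductase, had ratios of 0.667 and 0.566, with dimmer probe sets closer to 1 in the infarct zone. The kinase PLK2 had ratios of 1.41 and 1.69, the pro-apoptotic BAX 1.67 and 1.31, and the antiproliferative BTG2 1.35 and 1.39.

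**Figure D3:**
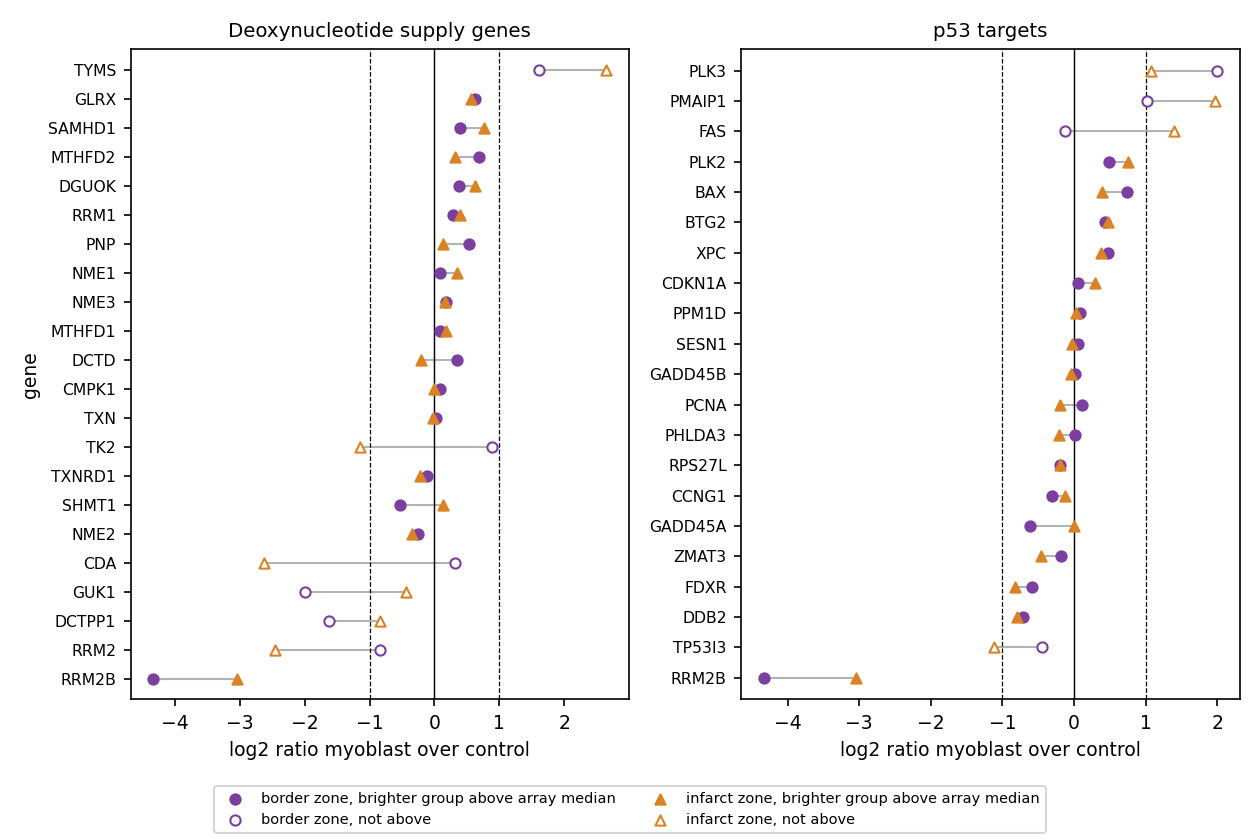
Log2 ratio of myoblast over control for each measured gene of deoxynucleotide supply (left) and of the p53 list (right), with purple circles for the border zone, orange triangles for the infarct zone, filled where the brighter group was above the array median in both zones, and dashed lines at 2-fold. RRM2B, at −4.33 (border) and −3.04 (infarct), is drawn filled through its control signals, and the other filled genes lie between the dashed lines.

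Of 62 listed genes of origin licensing and the replication fork 39 were measured, 2 fell (MCM3 and ASF1B), 1 rose (PRIM2) and 36 did neither. Their median log2 ratio was 0.14, with 17 genes above 1 in both zones and 10 below. MCM3, another helicase subunit, had signals of 48.6 and 69.6 units in the myoblast border and infarct zones, against 100.2 and 150.1 units in the control border and infarct zones. Its ratios of 0.485 and 0.464 stand beside 0.516 and 0.660 for the brightest MCM2 probe set. Only the control infarct signal of MCM3 exceeded the median of its array. With signals raised to the array median, 0 genes of this list fell.

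The other genes that passed in this list were dimmer still. ASF1B, a histone chaperone of replicating chromatin, had signals of 3.83 and 3.96 units in the myoblast border and infarct zones, against 19.4 and 45.1 units in the control border and infarct zones. PRIM2, the large primase subunit, had signals of 36.5 and 27.6 units in the myoblast border and infarct zones, against 9.94 and 8.70 units in the control border and infarct zones. All signals of ASF1B and PRIM2 were below the array medians.

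Above the array median, the fork genes with the lowest ratios were MCM2, TOP2A and RFC1. TOP2A, the topoisomerase of dividing cells, had signals of 144 and 152 units in the myoblast border and infarct zones, against 206 and 231 units in the control border and infarct zones, with ratios of 0.699 and 0.657. RFC1, the large subunit of the clamp loader, had ratios of 0.579 and 0.852. On the high side stood POLD4, a small subunit of DNA polymerase delta, with 1.51 and 1.72, the fork protection protein TIPIN with 1.43 and 1.60, and POLE3, a histone-fold subunit of DNA polymerase epsilon, with log2 ratios of 0.58 and 0.59.

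**Figure D4:**
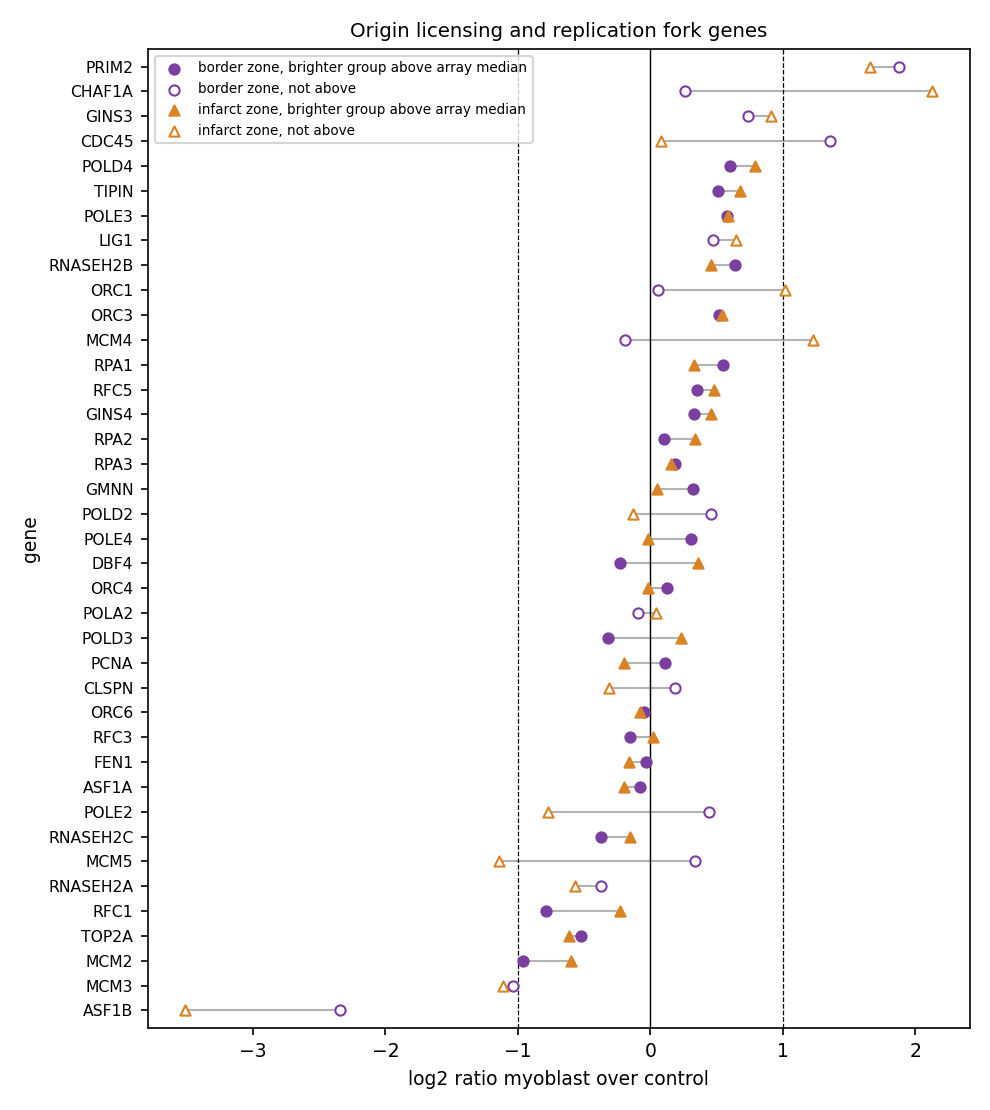
Log2 ratio of myoblast over control for each measured gene of origin licensing and the replication fork, with purple circles for the border zone, orange triangles for the infarct zone, filled where the brighter group was above the array median in both zones, and dashed lines at 2-fold. The 3 genes past 2-fold in both zones, MCM3, ASF1B and PRIM2, are drawn open, and filled genes lie on either side of 0.

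The lists of the cell cycle held no gene that passed the rule. Of 30 listed G1 cyclins, CDK inhibitors and E2F genes 11 were measured, with a median log2 ratio of −0.28, 4 genes above 1 in both zones and 5 below. CCND2, the D-type cyclin measured here in the absence of a CCND1 probe set, had signals of 1324 and 1978 units in the myoblast border and infarct zones, against 3209 and 3385 units in the control border and infarct zones. Its ratios of 0.412 and 0.584 passed 2-fold in the border zone alone. CDKN1B, the CDK inhibitor p27, had signals of 2313 and 2412 units in the myoblast border and infarct zones, against 1801 and 1433 units in the control border and infarct zones, with ratios of 1.28 and 1.68.

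Other probe sets of CDKN1B gave 1.49 and 1.43, and 0.476 and 2.01, in the border and infarct zones, so its dim probe set had the opposite sign in the border zone. E2F3, a transcription factor of S phase entry, had ratios of 0.648 and 0.924, MYC, a driver of growth, 0.655 and 1.03, and the pocket protein RBL2 1.21 and 1.13.

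Of 31 listed S to M phase genes 19 were measured, and 11 of them were below the array median on all 4 arrays. Their median log2 ratio was −0.46, with 6 genes below 1 in both zones and 2 above. Over all measured genes, 31.3% were below 1 in both zones and 33.2% above. NUSAP1, a spindle-associated protein, had signals of 263 and 226 units in the myoblast border and infarct zones, against 440.0 and 424 units in the control border and infarct zones, with ratios of 0.598 and 0.532, and its other probe set gave 0.605 and 0.663. RACGAP1, a cytokinesis protein, had ratios of 0.478 and 0.730. SMC4, a condensin subunit, had ratios of 1.16 and 1.15, and by a second probe set 1.26 and 1.57. Of the 7 genes of this list above the array median, 5 were below 1 in both zones, TOP2A, NUSAP1, RACGAP1, UBE2C (0.855 and 0.655) and STMN1 (0.745 and 0.645), and SMC4 alone was above 1 in both. The share over all genes above the array median was not computed, so this count has no reference.

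The list of mitochondrial DNA maintenance, the process that RRM2B serves in resting cells, held 21 genes, of which 12 were measured. RRM2B was the only one that fell, none rose, and the median log2 ratio was −0.15, with 7 genes below 1 in both zones and 2 above. The shares over all measured genes were 31.3% below and 33.2% above. PPARGC1A, the coactivator PGC-1α that drives mitochondrial biogenesis, had signals of 829 and 1025 units in the myoblast border and infarct zones, against 2403 and 2029.7 units in the control border and infarct zones. Its ratios were 0.345 and 0.505, so it passed 2-fold in the border zone and lay just short of it in the infarct zone.

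TK2, the mitochondrial thymidine kinase, which also supplies deoxynucleotides to mitochondria, had ratios of 1.85 and 0.452, on either side of 1, from signals under the array median on all arrays. SUCLG1, a succinyl-CoA ligase subunit, had ratios of 0.772 and 0.806. DGUOK, the mitochondrial deoxyguanosine kinase, had ratios of 1.30 and 1.54, but 0.749 and 1.10 by another probe set. LONP1, a mitochondrial protease, had ratios of 1.09 and 1.17, and SSBP1, the mitochondrial single-strand binding protein, 0.993 and 1.19. Neither TK2 nor DGUOK, the salvage kinases of mitochondria, passed the rule.

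Across the 6 pathway lists, 206 distinct genes were listed and 117 measured, of which 3 fell (RRM2B, MCM3 and ASF1B), 4 rose (TYMS, PRIM2, PMAIP1 and PLK3) and 110 did neither. These are 2.56% lower and 3.42% higher, near the 1.85% and 2.05% over all measured genes, and RRM2B is counted although its ratio chose the members.

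The profiles nearest to that of RRM2B over the 4 arrays, by Euclidean distance of centred log2 signals among 5776 probe sets with a single symbol and both control signals above the array median, belonged to genes outside these lists. The nearest, at a distance of 0.72, was LOC100522375, which has no gene name in the annotation used, with 66.1 and 165 units in the myoblast border and infarct zones, against 1154 and 777 units in the control border and infarct zones. Next, at 0.96, was the chemokine gene CCL14, with 57.6 and 107 units in the myoblast border and infarct zones, against 696 and 504 units in the control border and infarct zones. In both, as in RRM2B, the myoblast signal of the border zone was the lowest of the 4. Such a likeness follows from choosing these genes by their distance to RRM2B.

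NR4A3, an orphan nuclear receptor induced by stress, followed at 1.30, with 350.2 and 440.3 units in the myoblast border and infarct zones, against 3115 and 2208 units in the control border and infarct zones. SLA-3, a pig MHC class I gene, stood at 1.41 with ratios of 0.162 and 0.212, and SLC3A1, an amino acid transporter subunit, at 1.42 with ratios of 0.176 and 0.190. SLA-3 belongs to a family of near-identical genes whose probes can cross-react, so its values are uncertain.

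Of 3 measured genes on each side of RRM2B on its chromosome, chosen after the values of RRM2B were known, AZIN1 had ratios of 1.04 and 1.34, KLF10 1.27 and 1.22, NCALD 0.883 and 0.577, ZNF706 0.702 and 0.796, and YWHAZ 0.806 and 0.940. The sixth, ODF1, had ratios of 0.458 and 1.41, from signals of only 2.82 to 6.59 units. None of the flanking genes passed 2-fold in both zones.

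The signals of markers of the cell types in the tissue were summed over each list, and the brightest genes weigh most in such sums. Counts of direction stand beside 31.3% of all measured genes below 1 in both zones and 33.2% above. Of 15 listed cardiomyocyte markers 13 were measured, all above the array median, and 10 were below 1 in both zones. Their summed signal was 248351 and 266724 units in the myoblast border and infarct zones, against 282198 and 322819 units in the control border and infarct zones. NPPA, the atrial natriuretic peptide gene, rose, with ratios of 4.24 and 3.38. The 10 measured macrophage markers, of 15 listed, summed to 5548 and 7258 units in the myoblast border and infarct zones, against 4611 and 5178 units in the control border and infarct zones, with 5 above 1 in both zones and 0 below.

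Of 16 listed skeletal muscle markers 9 were measured, with sums of 20591 and 24235 units in the myoblast border and infarct zones, against 16433 and 23911 units in the control border and infarct zones. TNNT1, the slow troponin T gene and a bright member, had signals of 11481 and 13056 units in the myoblast border and infarct zones, against 5519.9 and 8196 units in the control border and infarct zones, a gap larger than that between the border zone sums. DES, the other bright marker of this list, had ratios of 0.835 and 0.709. The myogenic regulators MYOD1 and MYF5 fell and were dim on every array, with MYOD1 at 7.64 and 5.09 units in the myoblast border and infarct zones, against 45.3 and 34.1 units in the control border and infarct zones. Of the 9 markers, 1 was above 1 in both zones and 3 below, and 7 were below the array median on all 4 arrays. Among those 7, TNNT3 (0.120 and 6.85) and TNNI2 (3.19 and 0.0920) were at least 2-fold in opposite directions in the zones. Fibroblast markers, 10 of 13 measured, summed to 115652 and 80121 units in the myoblast border and infarct zones, against 98642 and 101671 units in the control border and infarct zones, a sum that went opposite ways in the zones. The sums of the 10 endothelial markers were 8067 and 10014 units in the myoblast border and infarct zones, against 7911 and 7519.7 units in the control border and infarct zones. Of these markers, 5 were above 1 in both zones and 2 below. The dim endothelial receptor gene TIE1, 1 of those below, fell, with ratios of 0.192 and 0.414. Lymphocyte markers, 8 of 12 measured, summed to 325 and 528 units in the myoblast border and infarct zones, against 373 and 419 units in the control border and infarct zones. Of these markers, 3 were above 1 in both zones and only 1 below. That was the dim T cell receptor complex gene CD3D, which fell, with ratios of 0.231 and 0.397. Among array controls, the 3′ over 5′ ratios of EF1A were 3.01 and 2.49 in the myoblast border and infarct zones, against 4.17 and 4.13 in the control border and infarct zones. Those of GAPDH were 1.73 and 1.38 in the myoblast border and infarct zones, against 1.55 and 1.52 in the control border and infarct zones. By this pair of probe sets, the GAPDH ratio was higher than control in the border zone and lower in the infarct zone. Other 3′ and 5′ probe sets for GAPDH and actin were present, and their ratios were not computed. The part of cell composition and of RNA quality in the ratio of RRM2B was not tested.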

How the data were processed

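Total RNA of heart tissue was labelled by the authors and hybridised to Affymetrix Porcine Genome Arrays, 1 for each of 4 conditions. The authors deposited log2 signals, computed with the MAS 5.0 algorithm, in which background is removed and arrays are brought to 1 mean. The linear trimmed mean, 2% cut at each end, was 500.1 on every array. They were used as deposited. Detection calls were not used here. Of the 24123 probe sets, 10099 carry 1 gene symbol, 198 several, 13826 none, and 124 are Affymetrix controls. By gene ID, 9989 symbols were matched to RefSeq annotation of Sscrofa11.1, and 0 changed.

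Within each zone, log2 ratios were myoblast minus control. A call required at least 2-fold in the same direction in both zones, with no test, since conditions have 1 array. In lists, the brightest probe set stood for a gene. Genes were named by a rule: all members, every list gene passing the call above the array median, and up to 3 with the largest rise and 3 with the largest fall above it. Other genes named, such as dim genes, were chosen after their values were seen. The members and lists were chosen with earlier results of these data known. Alternatives were quantile normalization, median centring, floors at the 25th percentile or median, 1.5-fold, the mean over zones, arithmetic means, each zone alone and other probe set rules. Scripts in Python 3.11.15 with numpy 2.4.6 and pandas 2.3.3 were tested on simulated data. The number of arrays limits the precision. No sequence of the members was used here.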

Additional observations from a re-analysis of the deposited data

Results flagged for a closer look

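Of the 13 member probe sets, 8 had ratios on either side of 1 in the zones, and in 2 of them the ratio was at least 2-fold in each zone, in opposite directions. For the third MCM2 probe set, the log2 ratio in the infarct zone minus that in the border zone was 4.20. For the second MCM4 probe set, it was −5.30. The difference was not tested in either case, since each zone has 1 array per condition, and all signals of both probe sets were below the array medians.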

How the results depend on the processing

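RRM2B stayed lower by at least 2-fold in both zones under every scaling and floor tried, with a mean log2 ratio of −2.20 when signals were raised to the array median. The floors could not reverse its direction, since both control signals lay above the array median and both myoblast signals below it. By the mean over zones 2 member probe sets were lower (RRM2B and RRM2) and 1 higher (MCM5), beside 7.82% of all probe sets lower and 7.70% higher. At 1.5-fold in both zones 3 were lower (RRM2B, RRM2 and MCM2) and none higher. The share over all probe sets at 1.5-fold was not computed, so that count has no reference. Across the pathway lists, 1 gene was lower and 0 higher with signals raised to the array median, 1 was higher with signals raised to the 25th percentile, and 12 were lower and 7 higher by the mean over zones. Shares over all genes were not computed for these settings. The changes in the counts follow from the rules for calls and floors, which take away dim genes or add genes that pass in 1 zone. Of the member ratios under alternatives that kept both zones, 39 moved by no more than 1 SD of the zone ratios and 4 by more. The 16 ratios of 1 zone alone lie within that SD by construction. Over all these alternatives the mean log2 ratio kept its sign for RRM2B (−4.33 to −2.20), RRM2, MCM2, RRM1 and CDKN1A, whereas those of MCM4 (−0.19 to 1.23), MCM5 (−1.14 to 0.36) and PCNA (−0.20 to 0.11) took both signs. The ratios pair the arrays by zone. No paired analysis was possible because a block of replicates needs replicate numbers, which 1 array per group does not give, and for the same reason no replicate could be left out. A model of treatment and zone would measure the spread between zones, not between minipigs, and was not run. Brightness limits the members: 7 of 13 probe sets were below the array median on all 4 arrays, so no direction can be read for MCM4 and MCM5.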
